A study of Mus musculus with 5 samples.

Results

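Mpo, Elane, Prtn3 and Ctsg are the 4 genes followed here, out of 15287 genes in a table of transcript counts from single mouse bone marrow cells. They were chosen by name, as the genes of myeloperoxidase and of the 3 classical serine proteases of the primary granule, and all 4 were present in the table. Their values were read in 12893 cells of 5 libraries. Cells came from the bone marrow of untreated Fgd5CreERT2/+Rosa26Tomato/+ mice aged 20 weeks, in which ZsGreen and CreERT2 are produced from the Fgd5 locus and Tomato stays silent behind a stop cassette until Cre is activated, so that every group carried the same 2 inserted alleles. The 3 libraries called a, b and c held lineage-negative, CD45.2+, c-kit+ progenitors (Lin-kit+, 11581 cells). The other two held cells that were also ZsGreen-positive, either without a further gate (Fgd5+, 793 cells) or with the Sca-1+CD150+CD48- phenotype of hematopoietic stem cells (HSC-Fgd5+, 519 cells). The number of mice is not given in the sources used here, so n counts libraries. The p-values measure the spread between libraries. Where cells of the same library are compared, they measure how the difference within a library varies between libraries. Either spread may be technical.

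The barcodes of the table name no population, and the libraries were matched to the populations only through the cell numbers that the study gives for them. The sample labels contradict each other on which of the reporter-positive samples carried the full stem cell gate. Libraries held between 2166655 and 36080242 transcripts counted by unique molecular identifiers (UMIs), with medians of 3721 to 6567 UMIs per cell. Levels are given as UMIs of a gene per 1000000 UMIs of the library (CPM). Each UMI stands for the 3' end of 1 captured transcript, so the values were not divided by gene length. All intervals span 95% and reflect counting error alone. Of all barcodes, 62 occurred in more than 1 library and 17 of these in a Lin-kit+ and a reporter-positive library.

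Primary (azurophilic) granules are formed early in the maturation of neutrophils, at the promyelocyte stage, and a smaller set is made by monocyte precursors. Myeloperoxidase, a heme enzyme, turns hydrogen peroxide and chloride into hypochlorous acid. Neutrophil elastase (Elane), proteinase 3 (Prtn3) and cathepsin G (Ctsg) are serine proteases that are activated by cathepsin C, stored on the proteoglycan serglycin and held in check by serpins. Their transcripts are lost when the cell moves on to secondary granules with lactoferrin and the cathelicidin Camp.

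In the GRCm38.p6 annotation of RefSeq, Elane (chr10:79886312-79888216) and Prtn3 (chr10:79879667-79883174) lie side by side on the plus strand of chromosome 10, with 3137 bases between them. Mpo lies on the plus strand of chromosome 11 (chr11:87793784-87804412) and Ctsg on the minus strand of chromosome 14 (chr14:56099885-56102574). GENCODE M21 starts the first exon 203 bases further upstream for Mpo, 65 for Elane and 53 for the coding Prtn3 transcript. Up to 120 of the 250 bases before the RefSeq start that lie outside the exons of both annotations are shown. They are given because the neighbours Elane and Prtn3 parted in stem cells and Ctsg and Mpo parted from both along neutrophil maturation. The 120 bases of Prtn3 lie inside the GENCODE gene, which starts at chr10:79874476 with a longer transcript, but outside its exons. Capitals mark the letters GAGGAA (an ETS family core), AACGG (a MYB core), GCAAT (part of a C/EBP site), TGTGGT (a RUNX core) and TATAA, searched on both strands.
Prtn3 (chr10:79879494-79879613, plus strand): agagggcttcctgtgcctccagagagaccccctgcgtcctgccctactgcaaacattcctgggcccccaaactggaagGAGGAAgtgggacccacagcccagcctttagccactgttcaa
Elane (chr10:79886127-79886246, plus strand): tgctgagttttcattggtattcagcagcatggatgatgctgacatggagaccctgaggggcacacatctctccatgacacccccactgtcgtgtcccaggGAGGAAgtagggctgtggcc
Mpo (chr11:87793534-87793580, plus strand): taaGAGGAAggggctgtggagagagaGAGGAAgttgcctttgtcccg
Ctsg (chr14:56102575-56102694, minus strand): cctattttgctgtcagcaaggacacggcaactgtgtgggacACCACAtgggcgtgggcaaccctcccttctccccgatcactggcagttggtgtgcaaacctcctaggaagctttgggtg

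Counted from the RefSeq start, the ETS letters lay at -95 bases in Prtn3, at -85 in Elane and at -247 and -224 in Mpo, all on the gene's strand. Ctsg held the RUNX letters at -79 on the opposite strand, and its ETS letters lay beyond the shown bases, at -216. Prtn3 and Elane also held the MYB letters, at -55 and -50, and the TATA letters, at -32 and -31, in the same order and strand. These lay wholly or partly within the first exon of GENCODE, as did the C/EBP letters of Elane (-57) and Mpo (-56), and are not shown. Over the 250 bases before the start of 27025 mouse genes, the ETS letters occurred in 23.1%, those of MYB in 14.8%, of C/EBP in 23.3%, of RUNX in 14.2% and of TATA in 23.5%. ETS, MYB and TATA letters occurred together before 153 genes (0.566%). These matches describe letters and not binding.

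All 4 transcripts were lower in reporter-positive than in Lin-kit+ cells. Prtn3 was still found in most reporter-positive cells, whereas Mpo, Elane and Ctsg were found in under 2% of them. Mpo stood at 4123, 4288 and 4568 CPM in libraries a, b and c. It stood at 56.6 CPM (exact Poisson interval 49.6 to 64.3) in Fgd5+ cells and at 7.85 CPM (4.57 to 12.6) in HSC-Fgd5+ cells. Elane, the fifth most abundant gene of every Lin-kit+ library, stood at 8395, 8444 and 9127 CPM there, against 54.7 CPM (47.8 to 62.3) and 2.77 CPM (1.02 to 6.03) in the reporter-positive ones. Ctsg stood at 2730, 2848 and 3074 CPM, against 34.1 CPM (28.7 to 40.2) and 5.08 CPM (2.53 to 9.08). For each of these 3 genes, and for Prtn3 below, the libraries of the populations did not overlap. How many of all genes were without overlap was not counted, so nothing particular to these genes is read from this. In the test further down, 7567 of 11991 genes were called in either direction.

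Prtn3, whose protein is known as an autoantigen in vasculitis, stood at 3956, 3742 and 3942 CPM in libraries a, b and c. It stood at 655 CPM (630 to 680) among Fgd5+ cells and at 594 CPM (562 to 627) among HSC-Fgd5+ cells, lower than in any Lin-kit+ library but well above the other 3 genes. In the order of abundance it was gene 168 and gene 180 of the reporter-positive libraries, where Mpo was gene 2306 and gene 8364. Of all UMIs of the 4 genes, Prtn3 held 20.6%, 19.4% and 19.0% in the Lin-kit+ libraries, 81.8% in Fgd5+ cells and 97.4% in HSC-Fgd5+ cells. The means, 89.6% ± 11 (SD, n = 2) and 19.7% ± 0.826 (SD, n = 3), differed by 70.0 percentage points, with a two-sided exact permutation p of 0.2, the smallest that 2 against 3 libraries allow. The 2 reporter-positive libraries carry different gates, so here and below their SD, and their spread in the tests, mixes gate with library.

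**Figure D1:**
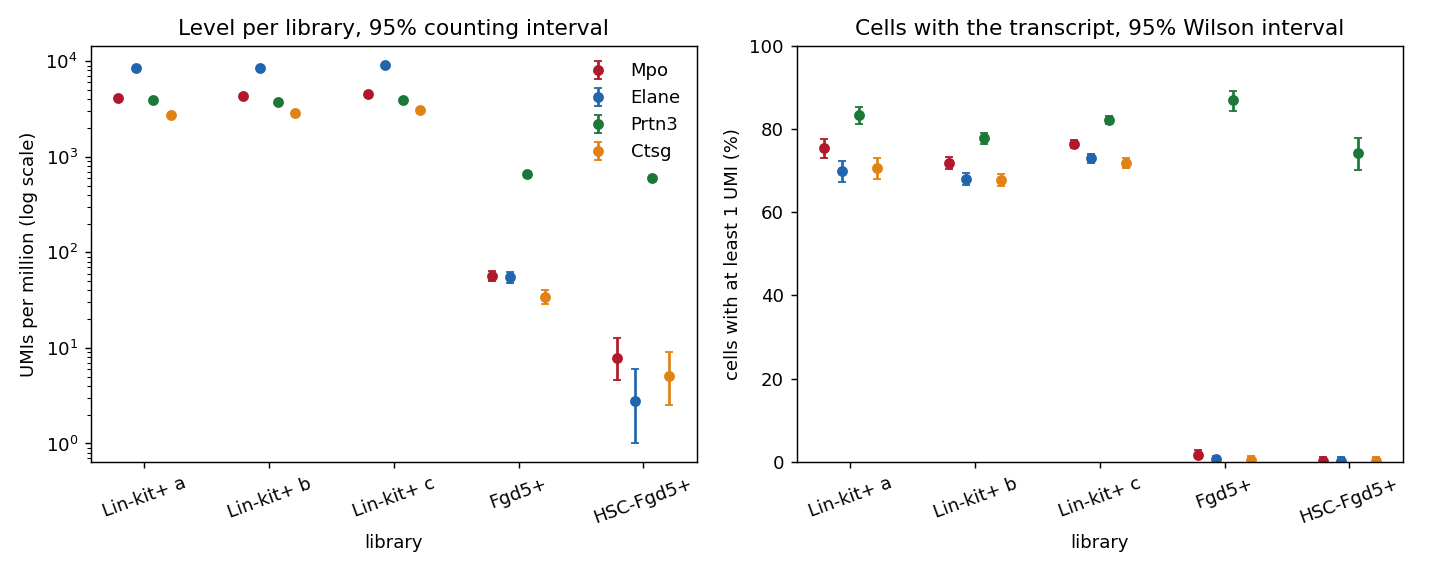
The left panel plots the level of each gene in each library as CPM on a log axis, with exact 95% Poisson intervals, and the right panel the share of cells with at least 1 UMI, with 95% Wilson intervals. Prtn3 lies at 655 and 594 CPM in the reporter-positive libraries and in 86.9% and 74.2% of their cells, while Mpo, Elane and Ctsg lie below 60 CPM and in under 2% of cells.

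UMIs summed per library were compared with the quasi-likelihood test of edgeR. Here and below, this test estimates the spread of each gene with the help of all genes tested, and not from the few libraries alone. The p-values were adjusted by the method of Benjamini and Hochberg over 11991 genes. All 4 genes were lower in reporter-positive cells, in a comparison in which 30.4% of the genes tested were called lower. Mpo was lower by a log2 fold change of -7.48 with a standard error (SE) of 0.69 (edgeR adjusted p = 9.56e-05), Elane by -8.62 (SE 0.90, adjusted p = 1.78e-04) and Ctsg by -7.58 (SE 0.60, adjusted p = 4.66e-05). The value for Prtn3 was -3.17 (SE 0.10, edgeR adjusted p = 1.60e-06). Leaving out 1 reporter-positive library kept the 4 calls and moved 3 of the values. Without Fgd5+ cells Mpo was at -9.67, Elane at -12.17 and Ctsg at -9.71, and without HSC-Fgd5+ cells at -6.80, -7.85 and -6.95, whereas Prtn3 was at -3.27 and -3.11. The change of the median gene was 0.07 on this scale and 0.60 when library totals replaced TMM scaling, which turned 3921 genes higher and 3646 lower into 6586 and 1993, and the change of Prtn3 was then -2.63. In bulk sums, fewer cells with a transcript and fewer transcripts per cell cannot be told apart, and the values per cell follow.

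Few cells held most of the Mpo, Elane and Ctsg of the reporter-positive libraries. One Fgd5+ cell with 21331 UMIs, outside the stem cell cluster, held 186 of the 236 Mpo, 222 of the 228 Elane and 130 of the 142 Ctsg UMIs of its library, together with 113 Prtn3 UMIs. One HSC-Fgd5+ cell held all 17 Mpo, all 6 Elane and all 11 Ctsg UMIs of its library and 2 of Prtn3. Without the 3 Fgd5+ cells and the 1 HSC-Fgd5+ cell that had 5 or more UMIs of these 3 genes, the remaining 790 Fgd5+ cells held 10 Mpo, 3 Elane and 1 Ctsg UMIs, and the remaining 518 HSC-Fgd5+ cells held 0 of each. Prtn3 then stood at 623 CPM and 593 CPM. None of the 4 cells left out had a UMI of Fgd5. The share of the other reporter-positive cells with such a UMI was not counted, so nothing is read from this. The 4 cells were chosen by their values, and this is a description.

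Prtn3 was spread over the reporter-positive cells. At least 1 Prtn3 UMI was found in 689 of 793 Fgd5+ cells (86.9%, Wilson interval 84.4 to 89.1) and in 385 of 519 HSC-Fgd5+ cells (74.2%, 70.2 to 77.8). The Lin-kit+ libraries gave 83.3%, 77.8% and 82.2%. A median Fgd5+ cell carried 3 and a median HSC-Fgd5+ cell 2 Prtn3 UMIs, against 19, 11 and 15 in Lin-kit+ cells, so that like shares of cells went with unlike numbers of UMIs per cell. When each cell was thinned to 2000 UMIs, which left out 163 reporter-positive and 660 Lin-kit+ cells, Prtn3 was found in 64.6% and 61.6% of the reporter-positive cells, and in 75.8%, 77.2% and 76.9% of the Lin-kit+ cells.

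The other 3 genes were found in few reporter-positive cells. Mpo was detected in 13 Fgd5+ cells (1.64%, 0.961 to 2.78), Elane in 5 (0.631%, 0.270 to 1.47) and Ctsg in 4 (0.504%, 0.196 to 1.29), and each of them in 1 HSC-Fgd5+ cell (0.193%, 0.0340 to 1.08). In Lin-kit+ cells Mpo was detected in 74.6% ± 2.40, Elane in 70.3% ± 2.45 and Ctsg in 70.1% ± 2.1 of the cells (SD, n = 3). Cells with Prtn3 as the only one of the 4 made up 673 of the 793 Fgd5+ and 384 of the 519 HSC-Fgd5+ cells.

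**Figure D2:**
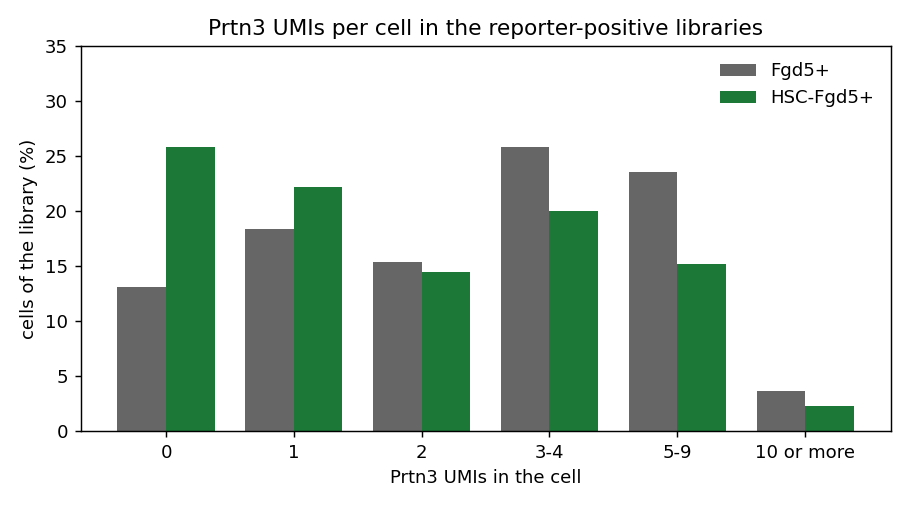
Bars give the share of the cells of each reporter-positive library (793 Fgd5+, 519 HSC-Fgd5+) that carry 0, 1, 2, 3 to 4, 5 to 9 or 10 or more Prtn3 UMIs. Cells with 0 make up 13.1% and 25.8%, and cells with 10 or more 3.66% and 2.31%.

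Among Fgd5+ cells 25.9% carried 3 to 4 and 23.6% carried 5 to 9 Prtn3 UMIs, and among HSC-Fgd5+ cells 20.0% and 15.2%. The cells were thus spread over all count classes. At 2000 UMIs per cell the variance of the count was 1.53 times its mean over all Fgd5+ and 1.68 times over all HSC-Fgd5+ cells, where Poisson counting alone gives 1.

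Cells were grouped into 19 Leiden clusters from all genes except these 4, so that their levels did not shape the clusters. A cluster was named with the ending -like when at least 3 markers of a list were raised at least 2-fold and seen in at least 5% of its cells, and the others are described by their leading genes. Clusters that met more than 1 list are called by the list that held their leading genes. The HSC-like cluster, with 7 of 7 HSC markers (Procr, Hlf, Mecom, Ly6a, Mllt3, Meis1 and Slamf1) and 3 of 7 megakaryocyte markers, held 1203 of the 1312 reporter-positive cells (722 Fgd5+, 481 HSC-Fgd5+) and 38 Lin-kit+ cells.

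Within the HSC-like cluster the intervals of the Prtn3 level overlapped among all 5 libraries. Prtn3 stood at 669 CPM (642 to 697) for Fgd5+ cells and at 645 CPM (609 to 683) for HSC-Fgd5+ cells. In the Lin-kit+ libraries, the same cluster had 526 CPM (333 to 789) in the 10 cells of library a, 644 CPM (375 to 1030) in the 16 of library b and 706 CPM (425 to 1102) in the 12 of library c. The Lin-kit+ values rest on 23, 17 and 19 UMIs.

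Mpo, Elane and Ctsg were at or near 0 in the reporter-positive cells of the cluster. The 722 Fgd5+ cells of the cluster held 6 Mpo, 2 Elane and 1 Ctsg UMIs. The 481 HSC-Fgd5+ cells held 0 of each among 1815626 UMIs. With 3 counts as the floor, this allows up to 1.65 CPM and up to 0.624% of cells with a UMI (the two-sided 95% intervals reach 2.03 CPM and 0.792%). By that floor the level was at least 2618-fold lower than the Lin-kit+ mean for Mpo, 5238-fold for Elane and 1745-fold for Ctsg. In library b, 17 of the 19 Mpo UMIs of the cluster came from 1 cell.

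Reporter-positive cells of another cluster, megakaryocyte-like with cell division genes such as Cenpf and Nusap1 among its leading genes, also carried Prtn3. It stood at 381 CPM (334 to 432) in 61 Fgd5+ and 334 CPM (274 to 403) in 33 HSC-Fgd5+ cells, below the HSC-like cluster in each library by intervals that do not overlap. These cells had medians of 9274 and 9760 UMIs, against 4157 and 3583 in the HSC-like cluster, and 91.8% and 90.9% of them had at least 1 Prtn3 UMI.

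Erythroid-like Lin-kit+ cells, with a median of 7940 UMIs, served as a class that should lack all 4 transcripts. Prtn3 stood there at 35 ± 18.1 CPM (SD, n = 3) and was found in 23.4% of the 290 cells, Mpo at 48.0 ± 26.4 CPM in 26.2%, Elane at 41.7 ± 24.7 CPM in 30.0% and Ctsg at 32.4 ± 15.6 CPM in 21.7%. At 2000 UMIs per cell these shares were 8.19%, 10.3%, 8.90% and 6.05%. The Prtn3 share of reporter-positive cells was above this level at a lower depth, and the shares of the other 3 genes were below it, so that no expression is read from them beyond the few cells with many UMIs. The erythroid-like cells come from other libraries than the reporter-positive cells, and the free RNA of either was not measured.

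The 4 genes were not used in the same proportions in all Lin-kit+ clusters. In a cluster led by Cd34, Ctla2a and Wfdc17 (1186 cells), which no marker list named, Mpo stood at 2143, 1953 and 2149 CPM over the 3 libraries, Prtn3 at 1849, 1592 and 1710, Ctsg at 1474, 1361 and 1459, and Elane at 956, 853 and 975. Prtn3 was found in 90.1%, Mpo in 70.2%, Ctsg in 59.4% and Elane in 41.9% of these cells. At 2000 UMIs the shares were 83.7%, 66.8%, 57.3% and 32.7%. Elane had the lowest level of the 4 here in each library.

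All 4 were highest in a cluster with early neutrophil markers and little of the secondary granule genes. In the neutrophil-like cluster led by Rgcc, Dmkn and Nkg7 (786 cells), Elane reached 29856 ± 1726 CPM, Mpo 10181 ± 1317, Prtn3 10084 ± 252 and Ctsg 7544 ± 967 (SD, n = 3), and together they made up 5.94% of all UMIs. The unnamed cluster led by Fkbp11, Nkg7 and Ms4a3 (855 cells) had 9050 ± 455 CPM of Mpo and 7417 ± 472 CPM of Ctsg, and for these 2 genes the libraries of both clusters overlapped. Elane (17754 ± 385) and Prtn3 (7167 ± 77.9) were lower in it than in the Rgcc-led cluster in every library.

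The 4 genes were lower to different degrees in neutrophil-like clusters rich in secondary granule genes. In the cluster led by Camp and Fcnb (780 cells), Elane stood at 15979 ± 1146 CPM and Prtn3 at 4359 ± 411, while Mpo was down to 3230 ± 625 and Ctsg to 740 ± 119. In the cluster led by Ltf, the gene of lactoferrin (983 cells), Elane stood at 2789 ± 71.2, Prtn3 at 937 ± 45.4, Mpo at 291 ± 29.4 and Ctsg at 79.8 ± 26.3 CPM. Elane made up 67.6% and Ctsg 2.14% of the 4 genes' UMIs there, against 51.6% and 13.4% in the Rgcc-led cluster. A cluster of 96 cells with neutrophil markers, of which 74.0% were called doublets, is not described further. Its cells were kept in the later steps, with 74 of them among the neutrophil-marker cells used below.

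In the monocyte-like cluster led by Lgals3, F13a1 and Ms4a6c (1597 cells), Elane stood at 6420 ± 309, Mpo at 4731 ± 227, Prtn3 at 4454 ± 129 and Ctsg at 3294 ± 207 CPM. The monocyte-like cluster with Irf8 among its leading genes (704 cells) had little Elane, at 737 ± 47.3 CPM, beside 2385 ± 251 CPM of Mpo, 2111 ± 53.8 of Prtn3 and 1488 ± 104 of Ctsg. The unnamed cluster led by F13a1, Fabp5 and Emb (1165 cells) stood above both for each of the 4 genes in every library, with 8759 ± 572 CPM of Elane and 6833 ± 289 of Mpo.

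Mast or basophil-like cells, with raised Prss34, Mcpt8, Ms4a2, Fcer1a, Cpa3 and Gzmb, held much Ctsg and little Elane or Prtn3. In the 541 cells, Ctsg stood at 3713, 3150 and 3596 CPM and Mpo at 2151, 2198 and 2581, while Elane stood at 327, 793 and 694 and Prtn3 at 544, 555 and 570. Ctsg made up 49.0% of the 4 genes' UMIs, a larger share than in any other cluster, and it was found in 83.4% of the cells. Cathepsin G is also a protease of mast cell granules. Prtn3 had the smallest share of UMIs here, 7.89%, close to the 9.34% of Elane. Elane was found in fewer of the cells, 44.7% against 61.2% for Prtn3.

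The remaining clusters were low. Lymphoid-primed-like cells (377) had 222 ± 24.0 CPM of Mpo, 212 ± 70.1 of Prtn3, 132 ± 67.0 of Ctsg and 52.6 ± 28.8 of Elane. Megakaryocyte-like Lin-kit+ cells (333) had 644 ± 285 CPM of Mpo and 488 ± 163 of Prtn3. The 2 dendritic-like clusters were led by genes of MHC class II and held 6 of 7 dendritic markers, but also 7 and 9 of the 12 monocyte markers, with medians of 22.9 and 21.6 per 10000 UMIs on the monocyte axis used below, against 19.9 in the Lgals3-led monocyte-like cluster. A cluster led by Pf4, with 5 erythroid and 3 megakaryocyte markers, was left without a name. These 3 clusters had means between 30.2 and 138 CPM for all 4 genes. Their libraries overlapped those of the erythroid-like cells except for Prtn3 in the Pf4-led cluster (123 ± 17.0 CPM) and in one of the dendritic-like ones (138 ± 74.8 CPM).

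**Figure D3:**
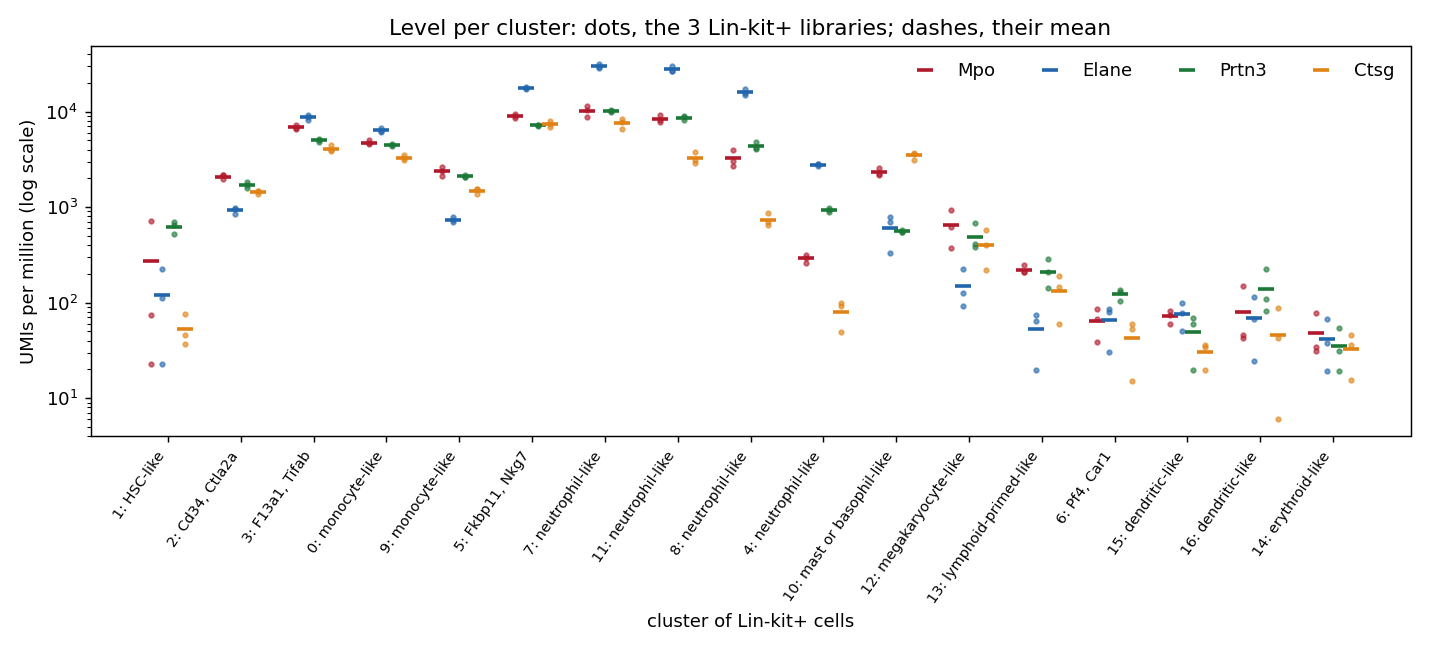
Levels of the 4 genes in CPM, on a log axis, for 17 clusters of Lin-kit+ cells, with 1 dot per library and a dash for the mean. Prtn3 has the highest mean in HSC-like cells, Elane from the Fkbp11-led cluster to the Ltf-led one (29856 to 2789 CPM), and Ctsg in mast or basophil-like cells. Elane also has the highest mean in the F13a1-led and the Lgals3-led cluster (8759 and 6420 CPM).

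In the order of clusters, the library ranges of several neighbours overlapped. For Mpo these were the Rgcc-led, the Fkbp11-led and the Fcnb- and Vcam1-led neutrophil-like cluster (8401 ± 680 CPM). For Elane they were the Rgcc-led and the Fcnb- and Vcam1-led cluster (27757 ± 1868). Within each library these clusters kept the order named. For Prtn3 each of the 4 highest clusters was above the next in every library. For Ctsg the mast or basophil-like, the F13a1- and Lgals3-led monocyte-like and the Fcnb- and Vcam1-led cluster (3276 ± 454) overlapped. Among the lowest 4 clusters of each gene, the library ranges of each cluster and the next lower one overlapped, except for the Pf4-led cluster for Prtn3.

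The 5 genes most like each of the 4 over the 19 clusters, by Pearson's r of log2(CPM + 1) among 4403 genes, are given as a description, since the clusters share libraries and depth. Elane was followed most closely by Alas1 (r = 0.976), which makes the rate-limiting enzyme of heme synthesis, and then by Mgl2, Dmkn, Cldn15 and Trem3 (0.956 to 0.941). Mpo was followed by Ap3s1 (0.928), a subunit of the adaptor that sorts granule cargo, then Txndc12, Hk3, Alas1 and Dmkn (0.925 to 0.883). Ctsg shared Ap3s1 (0.929) and Txndc12 (0.913) with Mpo, followed by Gng12, Papss2 and Gm1604a. Prtn3 was followed by Gstm1 (0.930), a marker of the neutrophil list, and by Hk3, Alas1, Txndc12 and B4galt6. Among the 4 genes r was highest for Mpo and Ctsg (0.973) and lowest for Elane and Ctsg (0.834).

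Cells of the 3 Lin-kit+ libraries were then gated by 12 neutrophil and 12 monocyte markers, without any of the 4 genes, to set the levels in cells with markers of either lineage side by side. The gates held 3299 neutrophil-marker and 3307 monocyte-marker cells. Elane stood at 17651, 16674 and 17985 CPM in neutrophil-marker cells, against 6135, 5544 and 6060 in monocyte-marker cells. Prtn3 stood at 6053, 5400 and 5670 against 4249, 3964 and 4158. Mpo stood at 5359, 5319 and 5790 against 4770, 4818 and 4969, and Ctsg at 3261, 3268 and 3496 against 3032, 3068 and 3281.

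All 4 genes were called higher in neutrophil-marker cells, where 29.1% of the 9639 genes tested were called higher. Elane differed by a log2 fold change of 2.07 (edgeR adjusted p = 2.00e-51), Prtn3 by 0.98 (adjusted p = 1.27e-33), Mpo by 0.69 (adjusted p = 1.31e-25) and Ctsg by 0.61 (adjusted p = 5.55e-23), each with an SE of 0.04. The libraries of each gate overlapped for Ctsg in CPM, at 3261 in one gate and 3281 in the other. Scaling by library totals, summed over the genes tested, lowered the change of the median gene from -0.08 to -0.48 and the 4 values to 1.66, 0.56, 0.27 and 0.19. It turned 2807 genes higher and 3352 lower into 1461 and 6045. Although its level was higher, Mpo was found in fewer neutrophil-marker (83.5%) than monocyte-marker cells (95.3%), and Ctsg in 75.8% against 95.3%. The gates had medians of 5308 and 6351 UMIs per cell.

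Within neutrophil-marker cells, the levels of all 4 genes were lower where secondary granule transcripts were abundant, most of all those of Ctsg and Mpo. Cells were ordered by the summed share of Camp, Ltf, Ngp, Lcn2, Cd177 and Itgb2l among their UMIs and split into 5 parts of 659 or 660 cells, numbered from the lowest share (0 to 4.53 per 10000 UMIs) to the highest (1380 to 4294), with medians of 6050 UMIs per cell in part 1 and 4685 in part 5. Ctsg stood at 7813, 8411 and 9112 CPM in part 1 for the 3 libraries, at 4587, 5089 and 5755 in part 2, at 1259, 1212 and 1586 in part 3, at 196, 251 and 331 in part 4 and at 38.4, 87.4 and 84.7 in part 5. Every library was lower at each step. The erythroid-like cells, used above as a class that should lack these transcripts, had 32.4 ± 15.6 CPM of Ctsg. The Ctsg level of part 5 lies near that value.

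Mpo stood at 9711, 10238 and 10919 CPM in part 1 and at 8320, 8904 and 10419 in part 2, ranges that overlap although each library was lower, then at 4183, 4431 and 5030, at 1157, 1152 and 1609 and at 185, 228 and 241. By part 3 Mpo was at 44.2% and Ctsg at 16% of its highest mean level.

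Elane stood at 23026, 24481 and 27558 CPM in part 1 and was higher in every library in part 2, at 28345, 28278 and 30672. It then fell to 19006, 18135 and 19136, to 8132, 6809 and 8818 and to 2002, 1687 and 1986. Prtn3 ran from 9129, 8852 and 9385 CPM to 9656, 8959 and 9488 in part 2, and then through means of 5409 and 2294 to 710, 632 and 750. In part 3 Elane was still at 64.5% and Prtn3 at 57.7% of the highest level, and in part 5 they kept 6.50% and 7.45%, where Mpo kept 2.12% and Ctsg 0.831%. These are shares of CPM, where the axis genes count among all UMIs, at 1380 to 4294 per 10000 in part 5. The fit below, without the axis genes, gave smaller falls for each gene. With a stricter gate of 4 markers, Elane and Prtn3 were highest in part 1.

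**Figure D4:**
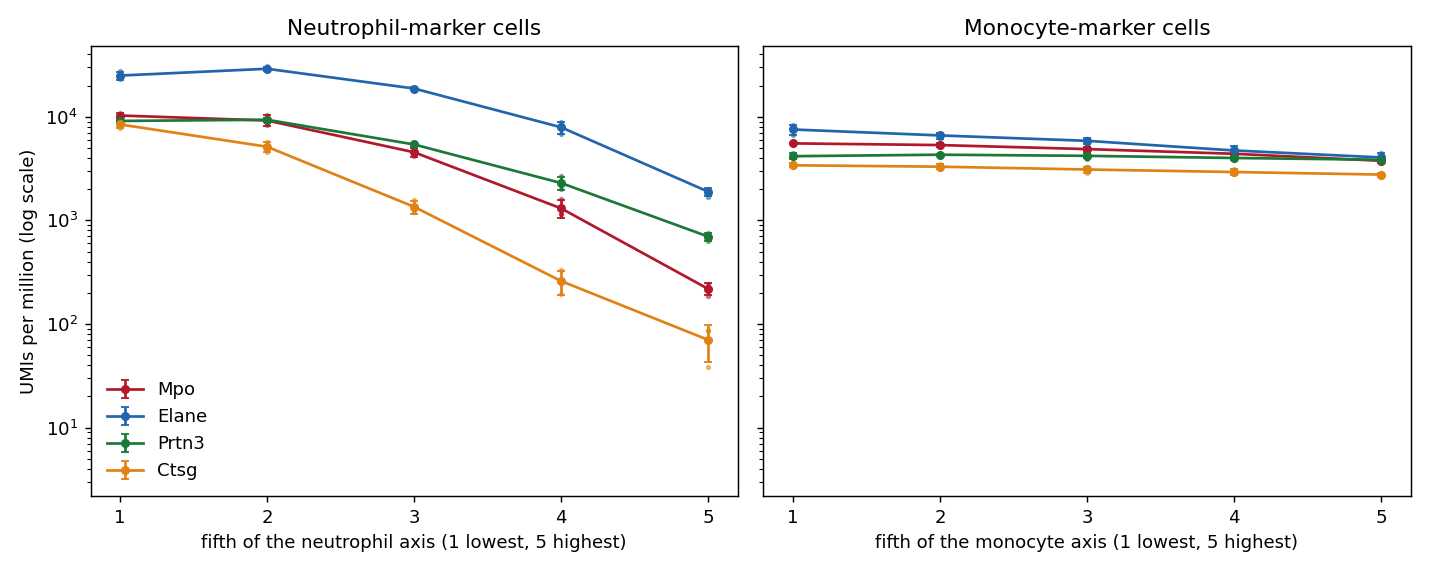
Mean level of each gene with its SD over the 3 Lin-kit+ libraries, in CPM on a log axis, against the part of the neutrophil axis (left) and of the monocyte axis (right), with dots for the libraries. On the left Ctsg drops to 0.831% and Mpo to 2.12% of the highest level, Elane and Prtn3 to 6.50% and 7.45%, and on the right the 4 lines stay between 2768 and 7543 CPM.

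Between part 5 and part 1, the 4 genes were called lower, among 5585 genes of which 32.2% were called lower. Ctsg fell by a log2 fold change of -5.93 (SE 0.08), Mpo by -4.67 (SE 0.07), Elane by -2.87 (SE 0.05) and Prtn3 by -2.84 (SE 0.06), and edgeR gave an adjusted p of 0 for each, too small for the number format. With library totals, summed over the genes tested, the median gene moved from -0.02 to -0.63. The split of 1672 higher and 1798 lower became 817 and 3157, and the 4 genes stood between -6.54 and -3.46.

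From the ratios of CPM, the log2 change of Mpo minus that of Ctsg was 1.95, 1.10 and 1.25 in the 3 libraries. The change of Mpo minus that of Elane was -1.84 ± 0.304 and minus that of Prtn3 -1.86 ± 0.174 (SD, n = 3), lower for Mpo in 3 of 3 libraries. Elane minus Prtn3 gave 0.16, -0.05 and -0.15, without a common direction. The exact sign-flip test over 3 libraries cannot go below p = 0.25, which it gave for each of these pairs except Elane and Prtn3 (p = 1). Over the 12 pairs compared on both axes, the Benjamini-Hochberg adjusted value was 0.273 for all but that one.

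Along the monocyte axis, the summed share of Csf1r, F13a1, Ccr2, Ms4a6c, Ly86, Fn1 and Ctss, the 4 genes changed by less than 1 log2 unit in the fit over all 3 libraries. From the CPM of single libraries, Elane changed by -1.20 in library a, -0.59 in b and -0.90 in c, and its fitted value was -1.004 without library b. Elane ran from 8246, 6680 and 7703 CPM in part 1 to 3580, 4444 and 4132 in part 5, a log2 fold change of -0.88 (SE 0.04, edgeR adjusted p = 4.87e-111). Mpo ran from 5507, 5505 and 5606 to 3711, 3829 and 3742 CPM, a log2 fold change of -0.55 (SE 0.04, edgeR adjusted p = 4.07e-44). Ctsg ran from 3383, 3264 and 3565 to 2620, 2829 and 2855 CPM, a log2 fold change of -0.29 (SE 0.04, edgeR adjusted p = 1.71e-11), and was not called (adjusted p = 0.107, log2 fold change -0.07) when 2 markers made the gate. Of the 6674 genes tested, 10.5% were called lower. The parts held 661 or 662 cells, with medians of 7037 UMIs per cell in part 1 and 5540 in part 5.

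The change of Prtn3 along the monocyte axis depended on the settings. Prtn3 stood at 4473, 3972 and 4053 CPM in part 1 and at 4066, 3676 and 3807 in part 5. Its log2 fold change of -0.11 (SE 0.04, edgeR adjusted p = 0.0340) was not called without library a, b or c (adjusted p = 0.106, 0.201 and 0.342), by DESeq2, without a filter or without the library block, and with a gate of 2 markers it was 0.14 (edgeR adjusted p = 0.0005). In part 5 of this axis each transcript was found in over 90% of the cells, against 27.5% (Ctsg) to 74.7% (Elane) in part 5 of the neutrophil axis.

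In single Lin-kit+ cells the 4 transcripts mostly occurred together. All 4 were detected in 60.3% of cells at the highest, 55.8% at the lowest and 58.6% ± 2.43 on average (SD, n = 3), and none of them in 10.4% ± 2.20. At 2000 UMIs per cell the values were 53.8% ± 1.19 and 14.1% ± 1.75. Such shares depend on depth, and the thinned values are used below.

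Partial sets were not spread evenly over the 14 other combinations. Among cells with exactly 3 of the transcripts at 2000 UMIs, Elane was the one missing in 49.0% ± 0.875, Ctsg in 37.6% ± 0.889, Mpo in 7.56% ± 2.61 and Prtn3 in 5.85% ± 1.27. Among cells with exactly 1, it was Prtn3 in 45.23% ± 7.71, Elane in 22.9% ± 3.45, Mpo in 19.9% ± 0.944 and Ctsg in 11.9% ± 3.35. Cells with Elane and Ctsg alone were the rarest combination, at 0.276% ± 0.0685.

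**Figure D5:**
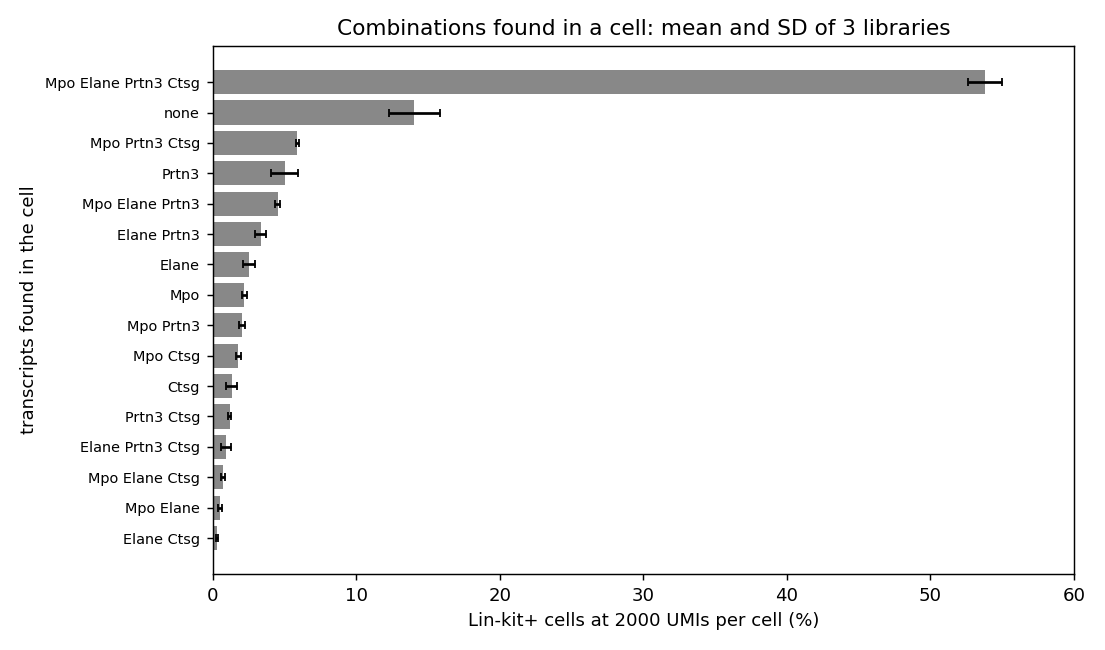
Share of Lin-kit+ cells, thinned to 2000 UMIs per cell, with each of the 16 combinations of the 4 transcripts, as the mean and SD of 3 libraries. The complete set leads at 53.8%, followed by none at 14.1%, the set without Elane at 5.88% and Prtn3 alone at 5.0%.

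Cells with Ctsg were rarely without Mpo or Prtn3. Of the cells with Ctsg, 94.4% ± 1.13 also had Mpo and 93.8% ± 0.614 Prtn3, while of those with Prtn3 80.6% ± 1.43 had Ctsg. Across cells, log2(1 + UMIs per 10000) correlated with a mean r of 0.889 for Mpo and Ctsg, the highest pair, and 0.706 for Elane and Ctsg, the lowest, over 11581 cells. In neutrophil-marker cells the highest pair was Elane and Prtn3 (0.913, 3299 cells) and in monocyte-marker cells Mpo and Ctsg (0.821, 3307 cells). Cells of 1 library share free RNA and differ in depth, and these correlations are descriptions.

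A fixed list of 38 partner genes held other granule contents, inhibitors, packaging genes and regulators. The inhibitors listed do not all act on the 4 enzymes themselves. Of all genes tested, 32.7% were higher and 30.4% lower in reporter-positive cells. All 10 of the other granule contents tested were lower there, with a median log2 fold change of -1.37 against 0.07 for all genes. With library totals in place of TMM scaling 8 of the 10 were lower, without Cd63 and Ctsd. Prss57, a further serine protease of these granules, stood at 6.98 ± 2.69 CPM in reporter-positive and 192 ± 10.1 CPM in Lin-kit+ cells (log2 fold change -5.23, edgeR adjusted p = 2.72e-06). Ctsc, the cathepsin C that activates the granule proteases, differed less, at 76.9 ± 0.447 against 94.4 ± 7.42 CPM (log2 fold change -0.83, edgeR adjusted p = 2.26e-04).

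Of the 7 inhibitors, 5 were lower and 2 higher in reporter-positive cells, under both scalings, with a median log2 fold change of -4.26. Serpinb1a, which inhibits elastase, proteinase 3 and cathepsin G, stood at 49.9 ± 8.52 against 666 ± 86.6 CPM (log2 fold change -4.26, edgeR adjusted p = 3.70e-06). Slpi, a secreted inhibitor of elastase and cathepsin G, stood at 3.44 ± 2.26 against 372 ± 3.82 CPM (log2 fold change -7.12, edgeR adjusted p = 2.08e-06). Serpina3g was higher, at 259 ± 13.5 against 21.8 ± 2.99 CPM (log2 fold change 3.03, edgeR adjusted p = 3.56e-06), as was Serpinb6a, an inhibitor of cathepsin G, at 45.7 ± 3.25 against 6.72 ± 1.22 CPM (log2 fold change 2.21, edgeR adjusted p = 3.85e-05).

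Among the 8 packaging and folding genes 6 were lower and 1 was higher, and 5 and 2 with library totals, with a median of -1.09. Srgn, the gene of serglycin, stood at 999 ± 52.4 CPM in reporter-positive and 1555 ± 89.3 CPM in Lin-kit+ cells (log2 fold change -1.17, edgeR adjusted p = 3.09e-05). Calr, a chaperone of the myeloperoxidase precursor, stood at 500 ± 4.57 against 1185 ± 61.4 CPM (log2 fold change -1.78, edgeR adjusted p = 5.30e-06). Alas1, of heme synthesis, stood at 21.5 ± 1.09 against 174 ± 4.66 CPM (log2 fold change -3.54, edgeR adjusted p = 1.19e-06).

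Of the 11 regulators tested (12 listed), 7 were lower and 0 higher in reporter-positive cells, and 6 and 1 with library totals, with a median of -2.01. Cebpe and Cebpa, which drive granule genes, were lower by log2 fold changes of -6.85 and -4.71 (edgeR adjusted p = 2.62e-05 and 9.56e-05). Myb was called lower (-0.44) with TMM scaling and not called with library totals, at 104 ± 6.18 against 97.9 ± 5.54 CPM. Spi1, the gene of PU.1, did not pass the test (log2 fold change 0.03, edgeR adjusted p = 0.976) and varied widely between Lin-kit+ libraries (64.5 ± 55.5 CPM).

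Along the neutrophil axis, where 29.9% of all genes tested rose and 32.2% fell, 5 of 8 packaging genes fell and 2 rose, and 5 and 0 with library totals. Srgn went from 3975 ± 308 CPM in part 1 to 149 ± 12.2 CPM in part 5 (log2 fold change -4.15, SE 0.07), and Calr from 1823 ± 164 to 68.5 ± 5.95 CPM (-4.15, SE 0.09). Alas1 went from 439 ± 15.7 to 128 ± 6.44 CPM (-1.16, SE 0.09, edgeR adjusted p = 3.51e-39). These 3 genes fell, as the 4 enzymes did. The median log2 fold change was -0.95 for the packaging genes, 0.21 for other contents, 0.66 for inhibitors and -0.08 for regulators, against -0.02 for all genes.

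Among the 10 other contents on that axis 4 rose and 3 fell, where 29.9% of all genes tested rose and 32.2% fell. With library totals 2 rose and 7 fell, which turned Cd63 and Hexa from higher to lower. Of all 5585 genes tested, 817 rose and 3157 fell on that scale. Lyz2, lysozyme, rose from 229 ± 61.6 to 23723 ± 1338 CPM (log2 fold change 7.24, SE 0.07), and Prss57 fell from 642 ± 30.8 to 121 ± 12 CPM (-1.77, SE 0.08). Of 6 inhibitors 3 rose and 1 fell, and 3 and 3 with library totals. Cst7, which inhibits cathepsin C, fell from 688 ± 37.4 to 39.1 ± 11 CPM (-3.41, SE 0.11), and Serpinb1a rose from 1081 ± 204 to 1747 ± 197 CPM (1.29, SE 0.05). Of 6 regulators, Cebpa and Myb fell by log2 fold changes of -4.39 and -2.20 and Ets1 and Spi1 rose (2 and 2, and 1 higher and 3 lower with library totals, without Spi1).

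Between the gates, where 29.1% of all genes tested were higher and 34.8% lower in neutrophil-marker cells, 7 of 10 other contents were higher and 3 lower (6 and 3 with library totals). Cd63, a membrane protein of primary granules, stood at 1598 ± 164 CPM in neutrophil-marker and 58.1 ± 6.08 CPM in monocyte-marker cells (log2 fold change 5.19, edgeR adjusted p = 1.41e-72). Ctsc was lower, at 16.7 ± 4.67 against 200.2 ± 16.1 CPM (-3.08, edgeR adjusted p = 5.72e-46). Of the 7 inhibitors 4 were higher and 2 lower under both scalings, with Serpinb1a at 1749 ± 187 against 262 ± 23.5 CPM (3.16) and Slpi at 186 ± 10.9 against 786 ± 14.6 CPM (-1.67). Of the packaging genes 4 were higher and 3 lower (4 and 4 with library totals), with Srgn at 2322 ± 100.3 against 930.3 ± 59.0 CPM (1.73). Of the 7 regulators 3 were higher and 3 lower, and 1 and 4 with library totals. The median log2 fold change was 1.17 for other contents, 1.18 for inhibitors, 0.42 for packaging genes and -0.27 for regulators, against -0.08 for all genes.

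On the monocyte axis, where 11% of all genes tested rose and 10.5% fell, the counts were the same under both scalings. Of 10 other contents 4 rose and 2 fell, of 4 inhibitors 2 rose and 2 fell, of 8 packaging genes 1 rose and 4 fell, and of 6 regulators 2 rose and 1 fell. The medians were 0.20, 0.13, -0.33 and 0.30 in this order, against -0.03 for all genes. Ctsc rose from 134 ± 6.28 to 269 ± 27.7 CPM (log2 fold change 1.03, edgeR adjusted p = 6.40e-36), and Calr fell from 1664 ± 33.0 to 968 ± 56.2 CPM (-0.79, edgeR adjusted p = 2.69e-62).

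Other genes overlap 2 of the 4 in the GENCODE M21 annotation, each on the opposite strand. Plppr3 (chr10:79860475-79874634) shares 159 bases with the first exon of a longer Prtn3 transcript that starts at chr10:79874476, upstream of the RefSeq gene, and Gm11505 shares 5361 bases with Mpo. The sources used here do not state the strand setting of the counting. In the table Plppr3 held 2267 and Gm11505 held 181 UMIs over all cells, against 2729 Prtn3 UMIs in Fgd5+ cells alone, and their part in the values was not tested.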

How the data were processed

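Single-cell libraries were made with the Chromium 3' version 2 kit. Per the labels, the authors used Cell Ranger 1.3 and 2.1 and Seurat 2.3.4 with genome build mm10, and the deposited table holds their raw UMI counts. It holds 0 columns of unmapped samples. The 4 genes, the partner and marker lists and the comparisons were chosen with earlier results of these data known.

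All 12893 cells were kept. Doublets (165) were called per library with Scrublet in scanpy 1.11.5. Counts scaled to the median and log-transformed, without the 4 genes, were reduced to 2000 variable genes and 20 components, and leidenalg 0.10.2 split the graph of 15 neighbours at resolution 1. A marker was on with at least 1 UMI and a share at or above that of its library. A gate needed 3 markers, 2 more than the other list and fewer than 3 dendritic ones. Gate and axis genes were left out of the tests of gates and axes. Where library totals were used as scaling, they were sums over the genes kept for the test, per library, gate or part. For the thinned shares, cells under 2000 UMIs (823) were left out.

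UMIs summed per library, gate or part were tested with edgeR 4.0.16 (TMM, filterByExpr, quasi-likelihood, Benjamini-Hochberg, threshold 0.05, library as a block within Lin-kit+), after a test on simulated data. Alternatives were DESeq2 1.42.0, library totals, no filter, doublets removed, a cell filter (1000 UMIs, 10% mitochondrial), equal cells, other gates, 3 parts in place of 5, no block and each library left out. Named genes were the 4, their listed partners and the 5 most alike. Intervals were exact Poisson or Wilson.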

Additional observations from a re-analysis of the deposited data

Results flagged for a closer look

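The change from part 1 to part 5 differed between the neutrophil and the monocyte axis for each of the 4 genes, by a test of the difference itself (edgeR's quasi-likelihood test of the interaction, chosen after seeing the data, 2861 of 7251 genes called). On the log2 scale the neutrophil change minus the monocyte change was -5.63 for Ctsg (SE 0.11, edgeR adjusted p = 2.39e-74), -4.11 for Mpo (SE 0.09, adjusted p = 4.87e-68), -2.74 for Prtn3 (SE 0.08, adjusted p = 5.18e-56) and -2.02 for Elane (SE 0.09, adjusted p = 2.31e-41). The axes are built from different genes and their parts span different ranges, and the part of this in the difference was not tested.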

How the results depend on the processing

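Of 188 values for the 4 genes under alternatives, 180 kept their direction and their side of the threshold, 7 kept the direction and lost the call, and 1 reversed. Of these 8, 7 were Prtn3 on the monocyte axis, which reversed to 0.14 with a gate of 2 markers, and the other was Ctsg there. The cause was not tested. Taking only the reporter-positive cells of the HSC-like cluster, an alternative chosen after seeing the data, kept all 4 calls and gave -12.44 for Mpo, -14.98 for Elane and -14.35 for Ctsg, values fitted on counts near 0 that are no bounds, and -3.11 for Prtn3. The number of genes called with DESeq2 was 3946 in place of 6159 between the gates, 2220 in place of 3470 on the neutrophil axis and 369 in place of 1434 on the monocyte axis. The library block pairs samples of the same library, and without this replicate block 559 genes were called on the monocyte axis. Leaving out 1 library gave 5964 to 7668 calls between populations (7567 with all), 4982 to 6215 between the gates, 2543 to 3634 on the neutrophil axis and 644 to 1377 on the monocyte axis. Of these ranges the monocyte axis was lowest without library c, which holds the most UMIs, and the populations without Fgd5+ cells. Between the sorted populations no paired analysis was possible because each library holds 1 population.

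The share of Lin-kit+ cells with all 4 transcripts was 53.8% at 2000 UMIs and 53.0% with at least 2 UMIs of each gene, in place of 58.6%. With a gate of 4 markers Elane and Prtn3 were highest in part 1 of the neutrophil axis in place of 2. On the monocyte axis Mpo, Elane and Ctsg were highest in part 2 in place of 1 with a gate of 2 markers, as were Mpo and Ctsg after thinning. By the floor of 3 counts, the counts of 0 allow up to 1.65 CPM of Mpo, Elane or Ctsg in the HSC-Fgd5+ cells of the HSC-like cluster. The two-sided 95% intervals reach 2.03 CPM.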
